A study of Mus musculus with 12 samples.

Results

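The 10 genes described here are targets, effectors, ligands and secreted antagonists of Wnt signalling, Axin2, Nkd1, Sp5, Lef1, Tcf7, Dkk1, Sfrp1, Sfrp5, Wnt5a and Wnt6, chosen by symbol from the 24495 genes of the count table. Wnt6 was also chosen because it was higher in the knockdown at Day 0, so every value that uses its Day 0 libraries is a description and was not tested. All 10 were among the 15532 genes that passed the filter on low counts. Dkk1 passed it through its Day 2 and Day 4 libraries alone, so its rise from Day 0 in either line is not independent of the filter.

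Wnt ligands are secreted proteins that bind Frizzled and LRP receptors, which keeps β-catenin from being degraded, and β-catenin then acts with TCF and LEF proteins on DNA. Axin2, Nkd1 and Sp5 are widely used as direct targets of this canonical branch, and Axin2 and Nkd1 feed back on it as inhibitors. The secreted antagonists act outside the cell, the Dkk proteins on the LRP receptors and the Sfrp proteins on the ligands, while Wnt5a mostly signals through branches that do not need β-catenin. In embryonic stem cells Wnt signalling helps to keep self-renewal, and in the embryo it is needed for mesoderm.

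RNA-seq was made from CCE-Nanog-GFP mouse embryonic stem cells (mESCs), which report Nanog by GFP and were sorted for GFP by flow cytometry before the experiments. The cells carried a lentiviral shRNA against the lysosomal protease cathepsin L (shCTSL, labelled KD) or a scrambled shRNA (shSC, labelled scr or WT). Both lines had been selected with puromycin, and the labels show 1 knockdown line. Each was sequenced undifferentiated with LIF (Day 0) and as rotating embryoid bodies (EBs) without LIF and with all-trans retinoic acid for 2 or 4 days (Day 2, Day 4). Each of the 6 groups has 2 biological replicates. Between Day 0 and the later days the loss of LIF, the retinoic acid and the aggregation therefore cannot be told apart. Libraries held 11171111 to 27155553 counts, and p-values measure the spread between these replicates.

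Ctsl was at 137 and 147 normalized CPM (counts scaled by library total and TMM factor) in shSC at Day 0 and at 39.2 and 37.5 in shCTSL. It was lower in shCTSL by 1.89 ± 0.15 (log2 fold change ± SE, adjusted p = 0.00246, edgeR) at Day 0 and by 1.06 ± 0.14 (adjusted p = 0.0342) at Day 2. At Day 4 it was at 484 and 423 in shSC and at 257 and 253 in shCTSL, which was not called (adjusted p = 0.0896). The 2 shCTSL Day 2 libraries stood apart: the SD of their log2 ratio over genes was 0.604, against 0.178 to 0.269 in the other 5 groups, and their ratio ran with exonic length (Spearman rho −0.587 across 14027 genes). The difference between the lines also ran with exonic length, with a rho of −0.464 at Day 2 and −0.414 at Day 4. Counts of members called between the lines are given below with and without those libraries.

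To show what the members carry at their promoters, the 250 bases before the start were searched for CTTTGA, the core of the TCF/LEF site, on both strands, in the RefSeq promoter table for GRCm38.p6. For 8 of the 10 members 12 windows were found, with more than 1 start for Lef1 and Tcf7, and none was in the table for Sfrp1 and Wnt5a. CTTTGA stood in 3 of the 12 windows, those of Sp5, Dkk1 and 1 of the 4 of Lef1, against 13.83% of all 32851 windows. Sp5 and Dkk1 are printed because they hold CTTTGA, in capitals (TCAAAG where it lies on the other strand), at 204 and 104 bases and at 174 and 117 bases before the start. Axin2 is printed as a target whose window holds no match. A match is a description of the sequence, and the RNA-seq counts hold no measure of binding.
Sp5, chr2:70474673-70474922, plus strand: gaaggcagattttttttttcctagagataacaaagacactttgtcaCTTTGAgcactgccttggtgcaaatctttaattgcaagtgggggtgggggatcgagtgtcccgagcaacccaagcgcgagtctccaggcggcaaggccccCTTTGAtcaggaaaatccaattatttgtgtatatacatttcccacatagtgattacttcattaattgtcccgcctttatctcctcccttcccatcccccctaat
Dkk1, chr19:30549497-30549746, minus strand: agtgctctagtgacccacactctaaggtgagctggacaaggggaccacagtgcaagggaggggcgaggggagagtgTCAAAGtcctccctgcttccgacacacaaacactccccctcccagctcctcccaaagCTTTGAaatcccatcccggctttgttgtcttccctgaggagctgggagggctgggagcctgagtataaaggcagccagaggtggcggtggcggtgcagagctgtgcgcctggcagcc
Axin2, chr11:108920099-108920348, plus strand: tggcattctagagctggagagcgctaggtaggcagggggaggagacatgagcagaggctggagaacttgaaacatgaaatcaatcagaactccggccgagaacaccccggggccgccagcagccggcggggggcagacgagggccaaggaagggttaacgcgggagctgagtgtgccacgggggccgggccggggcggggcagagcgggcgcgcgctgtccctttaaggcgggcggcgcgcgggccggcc

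**Figure D1:**
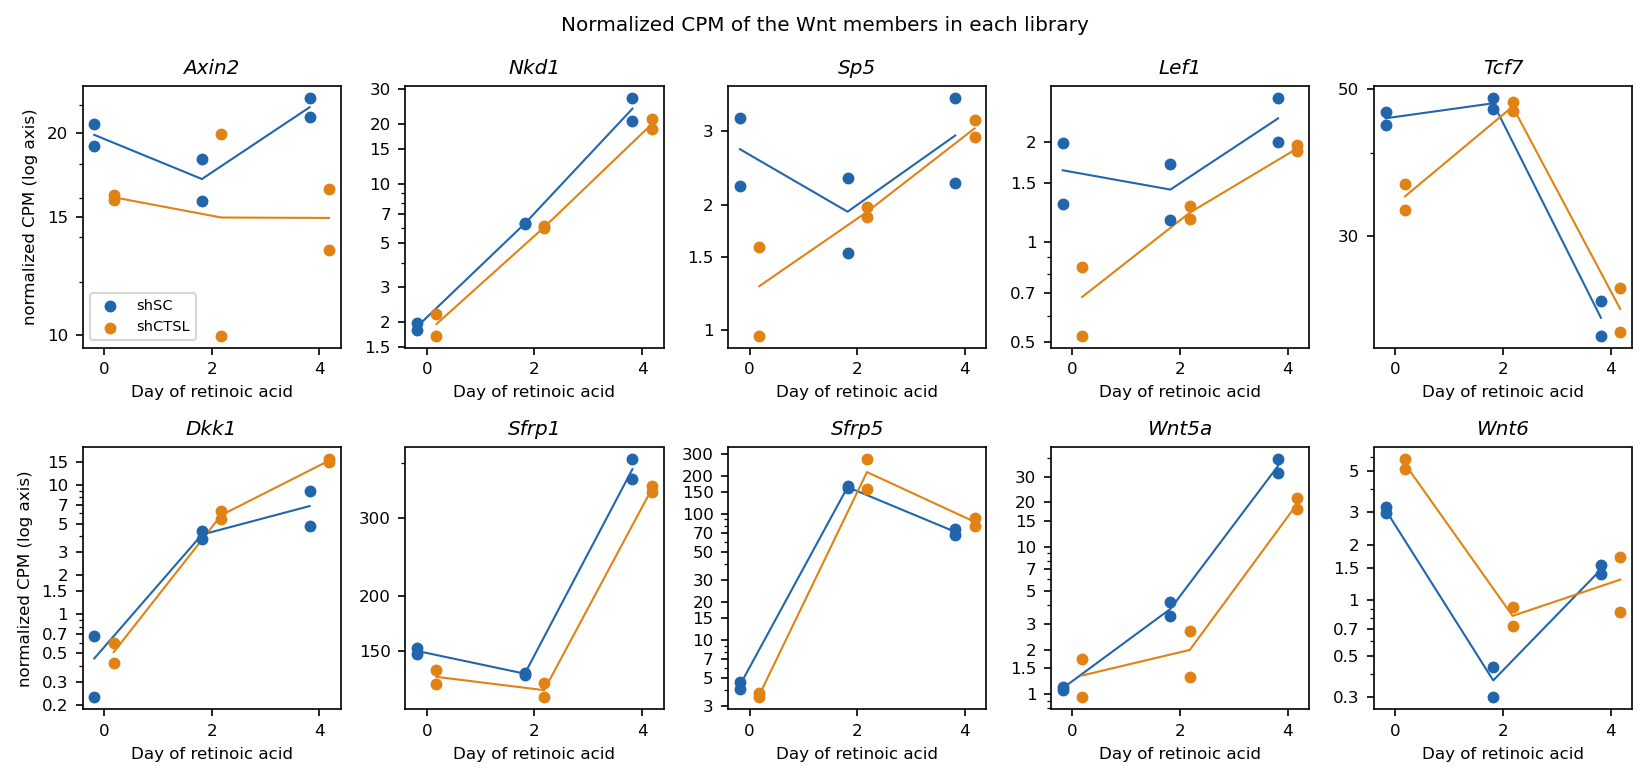
Normalized CPM on a log axis against the day of retinoic acid (Day 0 being undifferentiated cells) for each member, with 1 point per library (blue shSC, orange shCTSL) and lines through the group means. Nkd1 and Wnt5a climb from Day 0 to Day 4 in both lines, Sfrp5 peaks at Day 2 with its highest library at 270 in shCTSL, Tcf7 falls after Day 2, and Axin2 stays between 9.97 and 22.6.

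The first question was how the members moved as shSC cells differentiated. A gene is called changed here with an adjusted p under 0.05 over all genes tested and at least a 1.5-fold change. From Day 0 to Day 4, 5 of the 9 members tested rose and 1 fell in shSC, in a comparison where 60.7% of all genes were called (32.1% higher, 28.7% lower). From Day 0 to Day 2, 4 of 9 rose and 0 fell, against 54.6% of all genes called (29.3% higher, 25.3% lower). From Day 2 to Day 4, 4 of 10 rose and 2 fell, against 23.8% of all genes. The 3 comparisons share libraries and are not independent. Dkk1, counted among those that rose from Day 0, passed the filter through its later days alone. The median log2 fold change of the 9 members tested from Day 0 to Day 4 was 1.37, beside 0.03 for all genes. That median includes Dkk1 (3.80) and leaves out Wnt6 (−1.06), so it is a description. In bulk RNA, fewer cells of a type and less RNA per cell cannot be told apart.

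Wnt5a (mm9 chr14:29317936-29340633, plus strand) encodes a ligand of the β-catenin-independent branches. It was at 1.07 and 1.12 CPM in shSC at Day 0, at 4.18 and 3.37 at Day 2 and at 39.2 and 31.7 at Day 4. No library of one day overlapped another, and the 2 Day 4 libraries lay far above the rest. It rose by 1.79 ± 0.36 from Day 0 to Day 2 (adjusted p = 0.00149) and by 3.22 ± 0.27 from Day 2 to Day 4 (adjusted p = 2.44e-05). Over the 4 days the change was 32.3-fold (log2 5.01 ± 0.33, adjusted p = 5.35e-07), the largest from Day 0 to Day 4 among the members in shSC. The span of Wnt5a overlaps that of the antisense Gm2670 in the annotation. Whether their exons overlap was not examined, and the sources used here do not say if counting was strand-specific. How far reads of the pair mix is therefore not known.

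Wnt6 (chr1:74818466-74831893, plus strand), which encodes another ligand, had its low point in the middle. It was at 3.20 and 2.97 CPM in shSC at Day 0, at 0.299 and 0.438 at Day 2 and at 1.55 and 1.39 at Day 4. The Day 2 libraries were lowest, and the libraries of each day lay apart from those of the others. From Day 2 to Day 4 it rose by 2.01 ± 0.37 on the log2 scale (adjusted p = 0.0027), while its Day 2 level was 8.41-fold below Day 0, which is given without a test.

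Among the transcription factors that work with β-catenin, Tcf7 (TCF1; chr11:52065873-52096681, minus strand) was at 44.1 and 46.2 CPM at Day 0 in shSC, at 48.5 and 46.7 at Day 2 and at 21.3 and 24.0 at Day 4. The loss came after Day 2, with the 2 Day 4 libraries below all others. It fell by 1.08 ± 0.12 from Day 2 to Day 4 (adjusted p = 0.000126) and by 1.0 ± 0.12 from Day 0 to Day 4 (adjusted p = 3.62e-05), and it was the only member tested that fell from Day 0 to Day 4 in this line. Tcf7 overlaps A630014C17Rik on the other strand and Gm16953 on its own, which leaves its counts uncertain in the same way. Lef1 (chr3:130813389-130927274, plus strand) was far lower, at 1.30 and 1.98 CPM at Day 0, 1.16 and 1.71 at Day 2 and 1.99 and 2.71 at Day 4. The Day 4 libraries lay above those of Day 0 by a small margin, and the change of 0.47 ± 0.30 was not called (adjusted p = 0.188).

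The 3 target genes did not move alike. Nkd1 (chr8:91045243-91118786, plus strand), which binds Dishevelled, was at 1.83 and 1.98 CPM in shSC at Day 0, at 6.31 and 6.26 at Day 2 and at 20.6 and 27.0 at Day 4. It rose at both steps, by 1.71 ± 0.20 (adjusted p = 4.11e-05) and then by 1.92 ± 0.17 (adjusted p = 2.72e-05), with no overlap between days. The whole change was 12.4-fold. Axin2 (chr11:108781663-108812097, plus strand), the scaffold of the β-catenin destruction complex that canonical signalling induces, was at 19.1 and 20.6 CPM at Day 0, 18.3 and 15.8 at Day 2 and 22.6 and 21.2 at Day 4. Its Day 4 change of 0.14 ± 0.26 was not called (adjusted p = 0.652), and all its shSC libraries lay within a narrow band. It overlaps the antisense Gm11670. Sp5 (chr2:70312980-70315786, plus strand), a zinc-finger factor, was at 2.21 and 3.22 CPM at Day 0, 1.53 and 2.32 at Day 2 and 2.25 and 3.61 at Day 4. The days overlapped, and the Day 4 change was 0.06 ± 0.32 (adjusted p = 0.868).

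All 3 secreted antagonists rose from Day 0 to Day 4 in shSC. Sfrp5 (chr19:42272461-42276742, minus strand) was at 4.65 and 4.09 CPM at Day 0, at 165 and 160 at Day 2 and at 67.3 and 76.2 at Day 4. It peaked at Day 2, having risen 37.3-fold (log2 5.22 ± 0.26, adjusted p = 1.55e-07), and then fell by 1.18 ± 0.21 (adjusted p = 0.00208) to a level still 16.4-fold above Day 0. Sfrp1 (chr8:24521974-24560104, plus strand) was abundant throughout, at 152 and 148 CPM at Day 0, 134 and 133 at Day 2 and 408 and 368 at Day 4. The gain was confined to the second step, 1.54 ± 0.098 (adjusted p = 4.84e-06), and the first gave −0.17 ± 0.097 (adjusted p = 0.146). Dkk1 (chr19:30620353-30624155, minus strand) had 3 and 11 counts at Day 0, which is 0.229 and 0.682 CPM, and reached 4.42 and 3.81 CPM at Day 2 and 4.77 and 8.88 at Day 4. It rose by 3.10 ± 0.44 to Day 2 (adjusted p = 0.000145) and by 3.80 ± 0.43 to Day 4 (adjusted p = 2.25e-05), and the step from Day 2 to Day 4 was not called (0.70 ± 0.29, adjusted p = 0.102), though it was without shSC Day 4 replicate 1 (1.10) and without either shCTSL Day 2 library (0.65 and 0.67). Over 16 alternatives its rise ran from 2.58 to 4.17 to Day 2 and from 3.28 to 4.86 to Day 4, called in all 16. As the filter kept Dkk1 through its later days alone, this rise from Day 0 is not independent of that filter.

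Per kilobase of exon, the order of levels in shSC changed with the day. At Day 0 Sfrp1 led with 34.4 ± 0.687 CPM per kb (mean ± SD, n = 2), before Tcf7 at 16.2 ± 0.526 and Axin2 at 3.61 ± 0.192. Sfrp5 followed at 2.3 ± 0.209, and Lef1, Dkk1 and Wnt5a closed the order at 0.189 ± 0.0561, 0.188 ± 0.132 and 0.140 ± 0.00433, within the SD of Dkk1 of each other. At Day 2 Sfrp5 was first with 85.6 ± 1.71 CPM per kb and Sfrp1 second with 30.5 ± 0.219. At Day 4 Sfrp1 stood at 88.7 ± 6.56 CPM per kb, Sfrp5 at 37.8 ± 3.30 and Tcf7 at 8.11 ± 0.694. Nkd1 at 5.34 ± 1.01, Wnt5a at 4.53 ± 0.683 and Axin2 at 3.97 ± 0.184 came next, and each lay within the joint SDs of its neighbour. Lef1, at 0.271 ± 0.0585, was the lowest member at Day 4.

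**Figure D2:**
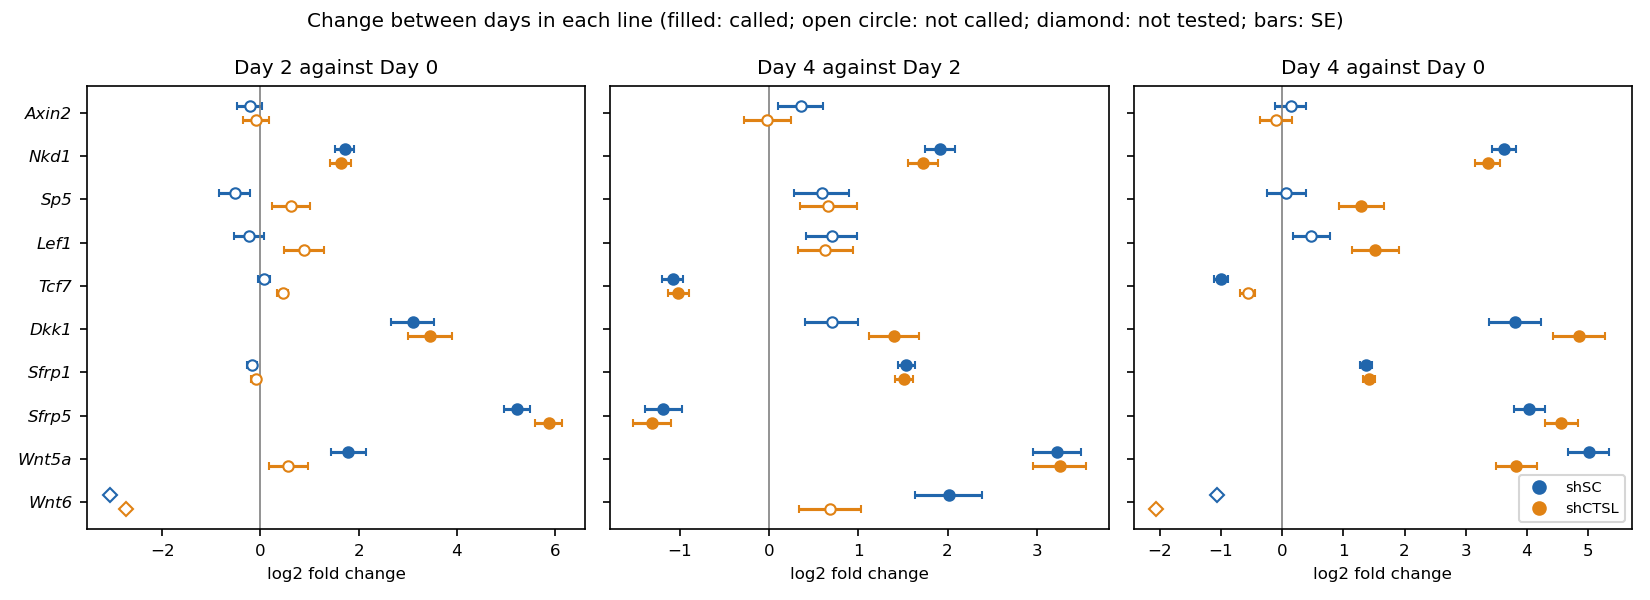
Log2 fold changes of each member between days with their SE as bars, in shSC and shCTSL; filled points are called and diamonds are the Wnt6 values not tested. Wnt5a (5.01 in shSC, 3.83 in shCTSL), Sfrp5 (4.04 and 4.56), Dkk1 (3.80 and 4.85) and Nkd1 (3.63 and 3.36) lie far to the right from Day 0 to Day 4. Tcf7 and Sfrp5 lie left of 0 from Day 2 to Day 4 in both lines.

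The same comparisons within shCTSL called 7 of 9 members higher and 0 lower from Day 0 to Day 4, against 59.9% of all genes (32.3% higher). From Day 0 to Day 2, 3 of 9 rose, against 55.5% of all genes (30.9% higher, 24.6% lower), and from Day 2 to Day 4, 4 of 10 rose and 2 fell, against 23.4%. Nkd1, Dkk1, Sfrp1, Sfrp5 and Wnt5a were called higher from Day 0 to Day 4 in each line. Dkk1, counted among those that rose from Day 0 in shCTSL too, passed the filter through its later days alone. Calls that stand in 1 line alone are not shown to differ between the lines, for which the difference itself is tested further on.

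Nkd1 in shCTSL was at 1.72 and 2.21 CPM at Day 0, 5.97 and 6.09 at Day 2 and 18.7 and 21.1 at Day 4, a 10.3-fold rise (log2 3.36 ± 0.20, adjusted p = 3.06e-07). Sfrp1 was at 127 and 136 CPM, then 127 and 118, then 354 and 345, and rose by 1.41 ± 0.098 (adjusted p = 7.59e-07). In both genes the days kept the order seen in shSC, with the gain of Sfrp1 again after Day 2. Sfrp5 was at 3.51 and 3.79 CPM at Day 0 and at 79.2 and 93.2 at Day 4, a rise of 4.56 ± 0.27 (adjusted p = 2.40e-07). Its 2 Day 2 libraries, at 270 and 158 CPM, differed far more than in shSC. The fall from Day 2 to Day 4 was 1.31 ± 0.21 (adjusted p = 0.00126), and it lost its call (−1.32, adjusted p = 0.0663) where only the libraries compared were fitted.

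Dkk1 in shCTSL was at 0.597 and 0.421 CPM at Day 0 (8 and 4 counts), at 6.22 and 5.41 at Day 2 and at 15.6 and 15.0 at Day 4. It rose at both steps, by 3.45 ± 0.45 (adjusted p = 8.09e-05) and by 1.40 ± 0.28 (adjusted p = 0.00453), 28.9-fold in all. As in shSC, this rise from Day 0 is not independent of the filter. The second step was not called by limma-voom with quality weights (1.41, adjusted p = 0.169). Wnt5a was at 1.72 and 0.948 CPM at Day 0, 1.29 and 2.68 at Day 2 and 21.4 and 18.0 at Day 4. Its Day 0 and Day 2 libraries overlapped (0.57 ± 0.39, adjusted p = 0.229), and it rose by 3.25 ± 0.29 from Day 2 to Day 4 (adjusted p = 3.91e-05). The first step was 0.98 and called without shCTSL Day 2 replicate 1, and −0.10 without replicate 2.

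Sp5 in shCTSL was at 0.970 and 1.58 CPM at Day 0, 1.97 and 1.87 at Day 2 and 3.19 and 2.90 at Day 4, and Lef1 was at 0.522 and 0.843, then 1.17 and 1.28, then 1.95 and 1.87. In both genes the 2 libraries of each later day lay above those of the day before. Sp5 rose by 1.30 ± 0.37 (adjusted p = 0.0104) and Lef1 by 1.52 ± 0.39 (adjusted p = 0.00535) from Day 0 to Day 4. Both calls were lost without shCTSL Day 0 replicate 1, with 0.94 (adjusted p = 0.115) for Sp5 and 1.17 (adjusted p = 0.072) for Lef1. Tcf7 was at 32.9 and 36.0 CPM, then 46.3 and 47.8, then 21.5 and 25.1. It fell by 1.01 ± 0.12 from Day 2 to Day 4 (adjusted p = 0.0002), and the Day 4 value was 1.48-fold under Day 0 (−0.56 ± 0.12, adjusted p = 0.00205), just short of the fold required.

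Axin2 in shCTSL was at 16.2 and 15.9 CPM at Day 0, at 9.97 and 20.0 at Day 2 and at 16.5 and 13.4 at Day 4. The 2 Day 2 libraries enclosed all others, and the Day 4 change was −0.10 ± 0.27 (adjusted p = 0.741). Wnt6 was at 5.15 and 5.79 CPM at Day 0, 0.923 and 0.724 at Day 2 and 0.866 and 1.72 at Day 4. Its Day 0 libraries were the highest of all 12, and the step from Day 2 to Day 4 was not called (0.68 ± 0.35, adjusted p = 0.169).

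The second question was whether the knockdown changed the members on a given day. At Day 0 the values are given without a test. Wnt6 was 1.77-fold higher in shCTSL, by 0.82 on the log2 scale, which is the value that chose it. Sp5 was lower by 1.14 on this scale and Lef1 by 1.32, on 13 to 59 counts per library for Sp5 and 7 to 45 for Lef1 over all groups. Tcf7 was at −0.39, Axin2 at −0.31, Sfrp5 at −0.26 and Sfrp1 at −0.20, while Wnt5a was at 0.34, Dkk1 at 0.13 and Nkd1 at 0.02. The sign of these 3 turned with 1 Day 0 library left out, over −0.21 to 0.64 for Wnt5a, −0.39 to 1.18 for Dkk1 and −0.16 to 0.21 for Nkd1. Wnt6 is left out of the count of overlaps, since its difference on this day chose it. Of the other members, 6 were lower in shCTSL with no overlap between the lines and 3 overlapped. Over all genes 51.3% did not overlap (22.7% higher, 28.6% lower).

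At Day 2, edgeR called 0 of the 10 members between the lines, beside 0.0644% of all genes (0.0579% lower), with 3014 genes at an unadjusted p under 0.05. DESeq2 also called 0 members and 0.805% of all genes. Wnt6 was at 0.299 and 0.438 CPM in shSC and 0.923 and 0.724 in shCTSL (1.15 ± 0.41, adjusted p = 0.222), and Wnt5a was at 4.18 and 3.37 against 1.29 and 2.68 (−0.88 ± 0.31, adjusted p = 0.222). Neither gene's libraries overlapped between the lines, as in 5 of the 10 members and 45.5% of all genes. Of the other 8, Dkk1 (0.49 ± 0.29) and Sfrp5 (0.39 ± 0.21) had the largest values, and the rest lay between −0.20 and 0.01.

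These Day 2 values rest on the discordant pair of libraries. Without shCTSL Day 2 replicate 2, 4 members were called, Axin2 (−0.78), Sfrp5 (0.73), Wnt5a (−1.56) and Wnt6 (1.34), but so were 31.6% of all genes. Without replicate 1, 0 members were called, with 0.604% of all genes, and Axin2 was at 0.23 and Sfrp5 at −0.03. The direction for Axin2 and Sfrp5 thus turned on which library was kept. The 500 genes nearest in exonic length had a median of −0.24 for Wnt5a, 0.22 for Wnt6 and −0.13 for Axin2, and the part of length in these values was not tested.

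At Day 4, edgeR called 0 of 10 members, beside 0.0129% of all genes, with 1897 genes at an unadjusted p under 0.05. Dkk1 was at 4.77 and 8.88 CPM in shSC and at 15.6 and 15.0 in shCTSL. Both knockdown libraries lay above both controls, which differed from each other, and the difference was 1.19 ± 0.28 (2.28-fold, adjusted p = 0.203). Wnt5a was at 39.2 and 31.7 CPM in shSC and at 21.4 and 18.0 in shCTSL (−0.85 ± 0.24, adjusted p = 0.262), and Axin2 was at 22.6 and 21.2 against 16.5 and 13.4 (−0.55 ± 0.26, adjusted p = 0.426). The lines did not overlap in 6 of the 10 members (2 higher, 4 lower), where 61.5% of all genes did not overlap (30.0% higher, 31.5% lower).

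The Day 4 count changed with the libraries in the fit. Without both of them 2 of 10 members were called at Day 4, Dkk1 higher (1.22 ± 0.22, adjusted p = 0.00162) and Wnt5a lower (−0.85 ± 0.13, adjusted p = 0.000883), with 5.89% of all genes called. Axin2 then had an adjusted p of 0.00473 with a value of −0.55 (1.46-fold), under the fold required. DESeq2 on all 12 libraries called Dkk1 (1.18, adjusted p = 0.0293) and 0.850% of all genes. Over 16 alternatives the adjusted p for Dkk1 ran from 0.00141 to 0.956 and its value from 0.78 to 1.68, with a call in 7. Genes of like length had a median of 0.08 for Dkk1, −0.21 for Wnt5a and −0.11 for Axin2.

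**Figure D3:**
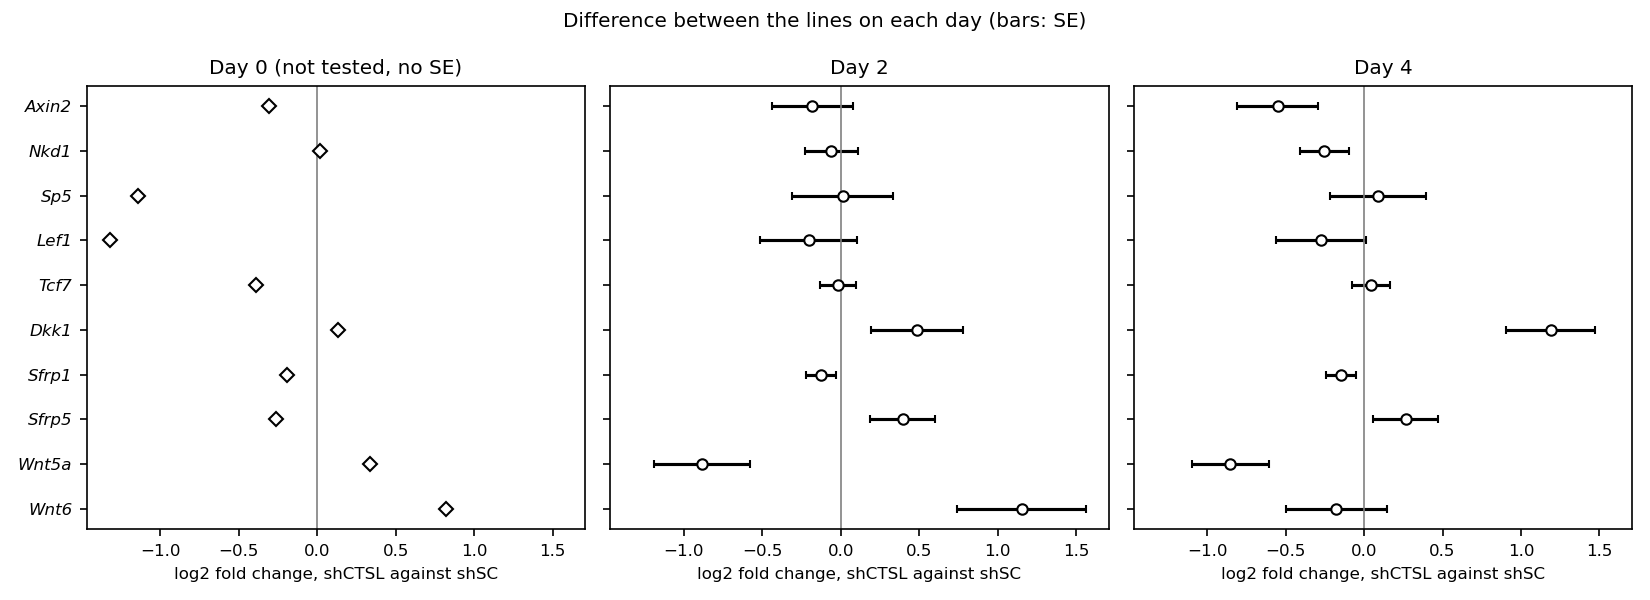
Log2 fold change of shCTSL against shSC for each member on each day, with the SE as bars at Day 2 and Day 4 and no test or SE at Day 0; open symbols are not called. Dkk1 at Day 4 (1.19) and Wnt6 at Day 2 (1.15) lie farthest to the right, and Lef1 (−1.32) and Sp5 (−1.14) lie farthest to the left, at Day 0.

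The difference between the lines in the change between days was tested directly. It was called in 0 of 9 members for Day 4 against Day 0, beside 0.00644% of all genes (1042 genes at an unadjusted p under 0.05, 28 called by DESeq2). Sp5 changed by 1.23 ± 0.49 more in shCTSL than in shSC (adjusted p = 0.714), Lef1 by 1.05 ± 0.50 (adjusted p = 0.754) and Tcf7 by 0.44 ± 0.17 (adjusted p = 0.714). Wnt5a gave −1.19 ± 0.52 (adjusted p = 0.738) and Dkk1 1.05 ± 0.73 (adjusted p = 0.841), so the larger rise of Dkk1 and the smaller rise of Wnt5a in shCTSL did not pass as a difference between the lines. Over 20 alternatives the value for Dkk1 ran from 0.015 to 1.57, called in 0. For Day 4 against Day 2 it was called in 0 of 10 members and 0% of all genes (753 at an unadjusted p under 0.05, 11 called by DESeq2), and Wnt6 had the largest value (−1.33 ± 0.52, unadjusted p = 0.0284, adjusted p = 1.0). That count rests on the discordant pair too: without shCTSL Day 2 replicate 1 Axin2 was called (−0.78, adjusted p = 0.0229), with 3.57% of all genes, and without replicate 2 0 members were, with 14.7% of all genes and Axin2 at 0.23. Without both shCTSL Day 2 libraries, 0 of 9 members and 1.67% of all genes were called for Day 4 against Day 0.

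The other genes of the pathway give the setting. Of 87 further genes, from ligands to antagonists, 78 passed the filter, and from Day 0 to Day 4 44 rose and 10 fell in shSC, where 32.1% of all genes rose and 28.7% fell. In shCTSL 44 rose and 14 fell, beside 32.3% and 27.6% of all genes. Their median was 1.15 in shSC and 1.10 in shCTSL, beside 0.03 and 0.06 over all genes. Some of them passed the filter through later days alone. In shSC at Day 0, Frzb and Wnt10b had 0 counts, Rspo2 and Wnt2 had 1 and Rspo3 had 2. The direction of such genes was partly set by the filter, so these counts and medians are a description. Of the 78, 52 were called the same way in both lines. In shSC 7 of 13 ligands tested rose and 3 fell, 12 of 18 receptors rose and 2 fell, 9 of 12 antagonists and their receptors rose and 2 fell, and 8 of 17 transduction genes rose and 0 fell. Feedback genes and targets were split, with 5 of 12 higher and 3 lower, and 3 of 6 agonist and secretion genes rose.

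Among ligands Wnt4 went from 1.38 ± 0.202 to 43.6 ± 1.28 CPM (mean ± SD, n = 2) from Day 0 to Day 4 in shSC (log2 4.98, adjusted p = 2.68e-07). Wnt10b had 0 counts at Day 0 and 21 at Day 4, which is at least 5.53-fold higher against a floor of 3 counts over the group. Wnt3, the canonical ligand of the primitive streak, fell by 2.84 (adjusted p = 0.000483) and the related ligand Wnt3a by 1.72 (adjusted p = 0.000318). For secretion and receptors, Wls, which carries ligands to the surface, went from 5.04 ± 0.737 to 260 ± 45.0 CPM, and Fzd1 (6.13) and the Wnt5a receptor Ror1 (5.57) rose most among receptors, while Fzd5 (−3.15) and Fzd10 (−1.38) fell. The agonist Rspo3 had 2 counts at Day 0 and 862 at Day 4, a ratio of 340.3 (95% counting interval 93.9 to 2815). These genes moved the same way in shCTSL.

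In transduction Pygo1 (2.42) and Apc2 (2.33) rose most. Among feedback genes the target Tnfrsf19 (3.40) and the Frizzled ubiquitin ligase Rnf43 (3.38) rose, while Notum, a secreted enzyme that inactivates ligands, fell from 51.2 ± 6.05 to 2.53 ± 0.734 CPM (−4.30, adjusted p = 2.39e-07). The cyclin Ccnd1 fell by 3.45 (adjusted p = 3.31e-08). Among antagonists Frzb had 0 counts at Day 0 and 187 at Day 4 (at least 49.2-fold higher), Igfbp4 rose by 5.56, Sfrp4 fell by 5.44 and Kremen2 by 2.39. Antagonists thus moved in both directions, as Sfrp4 fell while Sfrp1 and Sfrp5 rose.

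**Figure D4:**
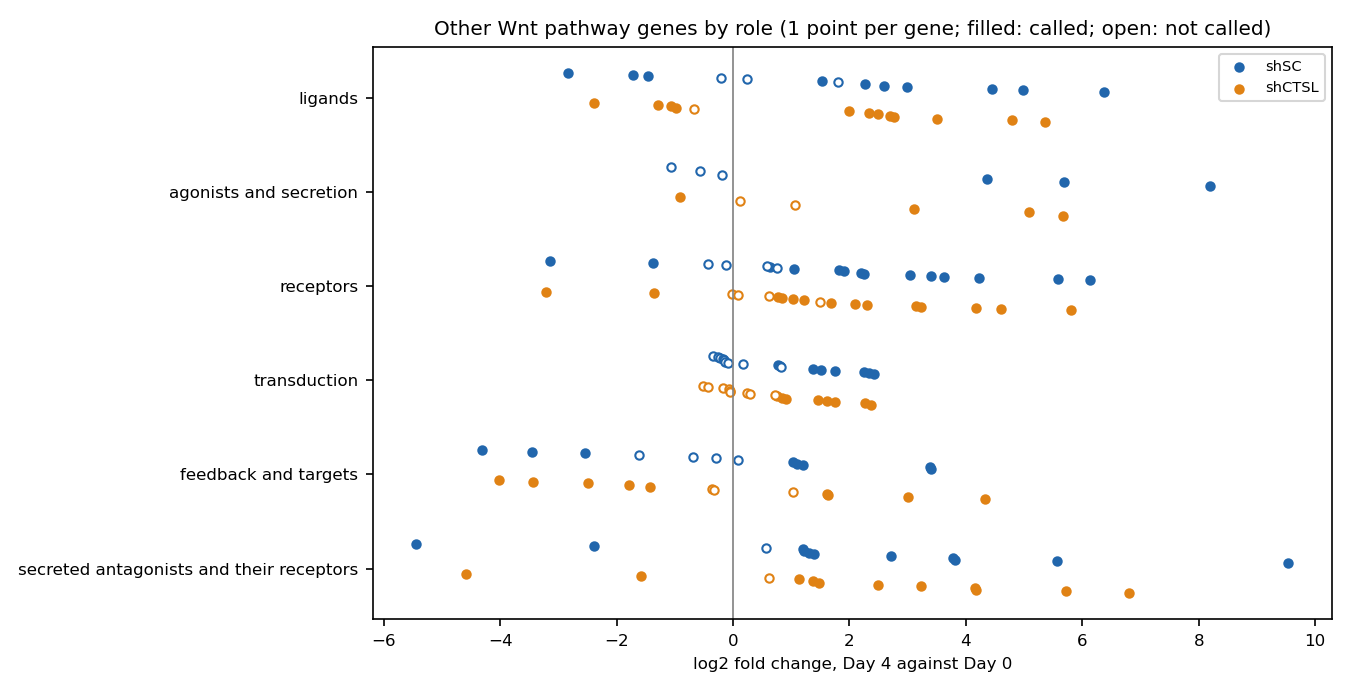
Log2 fold change from Day 0 to Day 4 (horizontal axis) of the 78 further pathway genes tested, by role (rows, with points shifted vertically only for legibility), in shSC (blue) and shCTSL (orange); filled points are called, and the shSC values of Wnt10b and Frzb, with 0 counts at Day 0, come from the fit. Most points lie right of 0 (median 1.15 in shSC), and Sfrp4 (−5.44) and Notum (−4.30) are the shSC points farthest to the left.

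Between the lines, 0 of the 78 further genes were called at Day 2 or at Day 4 by edgeR, and 0 by DESeq2. Without both shCTSL Day 2 libraries 5 of 78 were called at Day 4, beside 5.89% of all genes, and they are named after their values were seen. Wnt2 (2.02) and Wnt9a (0.62) were higher in shCTSL, and Rspo3 (−0.94), Lgr6 (−1.40) and Nkd2 (−1.13) were lower. At Day 2, 22 of 79 were called without shCTSL Day 2 replicate 2, beside 31.6% of all genes, and 0 without replicate 1, beside 0.604%.

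Marker genes of cell types also changed between days. The summed level of 8 pluripotency markers fell from 6327 to 6432 CPM at Day 0 in shSC to 351 to 419 at Day 4, and all 8 were called lower. That of 14 extraembryonic endoderm markers went from 440 to 472 to 2618 to 2920 CPM, with 13 of 14 called higher, and Afp and Ttr were at 0 at Day 0. Most of both sums was the laminin and collagen genes Lama1, Lamb1, Col4a1 and Col4a2. Their means were 210, 166, 47.9 and 17.0 CPM at Day 0 and 330, 441, 838 and 476 CPM at Day 4. That of 11 primitive streak and mesoderm markers went from 15.7 to 18.1 to 228 to 246 CPM, with Msgn1 at 0 at Day 0, and of 9 tested 5 were called higher and 2, Mixl1 and Mesp2, lower. Most of the Day 4 sum was Kdr (109 ± 0.362 CPM), Foxf1 (61.3 ± 6.30) and Twist1 (45.2 ± 10.5). The streak gene T was at 0.851 ± 0.414 CPM at Day 0 and 0.246 ± 0.152 at Day 4. Eomes, also a streak gene, went the other way, from 3.80 ± 0.990 to 11.1 ± 3.61 CPM. The streak genes thus moved in both directions, which the sum does not show. The 7 fibroblast markers went from 11.1 to 12.1 to 449 to 462 CPM, with Lum at 0 at Day 0, and of 6 tested 5 were called higher and 1 lower. The summed level of the 8 neural progenitor markers went from 265 to 283 to 167 to 190 CPM, though 4 were called higher and 2 lower, Tubb3 (170 ± 9.59 to 11.1 ± 2.64 CPM) and Elavl3. The part of such cells in the members' changes was not tested. In shCTSL the Day 4 sums were 347 to 410, 2669 to 2936, 193 to 217, 430 to 459 and 142 to 154 CPM in the same order of lists, so the mesoderm and neural sums lay below those of shSC. At Day 2 the mesoderm sum was 63.1 to 93.3 CPM in shCTSL and 135 to 136 in shSC. Most of that gap was Kdr, a VEGF receptor, at 38.9 ± 19.3 and 95.4 ± 2.36 CPM, while Eomes was at 18.9 CPM in each line. No marker of these 5 lists was called between the lines at Day 2 or Day 4.

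Over the 12 libraries the members' profiles on the log2 scale are described by Pearson's r, where the points share their days and lines. Sp5 and Lef1 ran together (r = 0.94), as did Nkd1 and Wnt5a (0.94), Sfrp1 and Wnt5a (0.93) and Nkd1 and Dkk1 (0.91), whereas Tcf7 ran against Sfrp1 (−0.92) and Wnt6 against Sfrp5 (−0.91). Axin2 reached no more than 0.34 in size with any other member. Of all genes tested, the profiles most like that of Axin2 were Fam160b1 (0.956), Pcdhga1 (0.953) and Osbpl2 (0.953), and those most like Wnt6 were Rexo4 (0.981), Dffb (0.981) and Snapc1 (0.970). Axin2 had its lowest library, at 9.97 CPM, in the discordant shCTSL Day 2 pair, with the other at 20.0. The part of that pair in the likenesses to Axin2 was not tested.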

How the data were processed

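The authors aligned poly(A) RNA-seq reads to mm9 with STAR 2.3.0e, dropped alignments of low mapping quality with SAMtools 0.1.19 and deposited raw counts per RefSeq gene from featureCounts 1.6.2. The kit was directional, and no source used here states the strand setting of the counting. The authors called genes with DESeq2 1.16.1 at a cutoff read here as 1.5-fold.

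Counts of all 12 libraries, 11171111 to 27155553 each, were fitted together in R 4.3.3 by the quasi-likelihood method of edgeR 4.0.16, with a mean per group, TMM scaling and filterByExpr (minimum count 10). p-values were adjusted by the Benjamini-Hochberg method over the 15532 genes tested. The members, lists and alternatives were chosen with earlier results of these data known. All members are named, and in each pathway list the 2 highest and 2 lowest log2 fold changes of shSC Day 4 against Day 0 among called genes. Profiles were compared on log2 CPM with 0.5 added. Alternatives used DESeq2 1.42.0, limma 3.58.1, other scaling, filters and cutoffs, a replicate block, fewer libraries and each library left out. Positions and exonic lengths come from GENCODE M1 on mm9 and promoters from RefSeq. Intervals and floors cover counting error only. Same-numbered replicates did not deviate in the same direction across groups (r −0.465 to 0.257 over 15 pairs of groups, 2 over 0.1), so the numbers were not taken as pairs. Both extremes involve shCTSL Day 2, with shCTSL Day 0 (0.257) and with shCTSL Day 4 (−0.465), so some deviations were shared between groups. The fit was tested on simulated data. Figures were drawn in Python 3.11.15 with matplotlib 3.10.9.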

Additional observations from a re-analysis of the deposited data

How the results depend on the processing

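Of 1479 values of single members under alternatives, 1389 kept their direction and side of the threshold, 13 lost a call, 30 gained one and 47 reversed. None of the reversed values was called in the fit of all 12 libraries, and the cause of each was not tested. With 2 libraries per group each SD is imprecise, a library left alone in its group is assumed to vary like the others, and members under 3 CPM rest on few counts. With a log2 fold change of at least 1.5, 3 of 10 members instead of 6 were called from Day 2 to Day 4 in shCTSL. In shSC this cutoff also removed the calls of Tcf7 and Sfrp5 from Day 2 to Day 4. From Day 0 to Day 4 it removed those of Tcf7 and Sfrp1 in shSC and of Sp5 and Sfrp1 in shCTSL. Between the lines at Day 4, where 0 were called, DESeq2 called 1 member, no filter on low counts 1, limma-voom with quality weights 2, the fit without both shCTSL Day 2 libraries 2 and that of only the libraries compared 2. Over all genes the same fits called 132, 119, 723, 909 and 711 genes, in this order. Further pathway genes called at Day 4 were 5 by limma-voom, 5 without both shCTSL Day 2 libraries and 4 with only the libraries compared. Leaving out each library in turn gave 0 to 4 members and 0 to 22 pathway genes at Day 2 (4 and 22 without shCTSL Day 2 replicate 2), and 0 to 2 members and 0 to 6 pathway genes at Day 4 (2 members without either shCTSL Day 2 library). For the difference between the lines in Day 4 against Day 2 it gave 0 to 1 member, Axin2 without shCTSL Day 2 replicate 1. The replicate block left the count of members called the same in every comparison, between the lines 0 at Day 2 and 0 at Day 4, and for all genes it gave 0 instead of 10 at Day 2 and 1 instead of 2 at Day 4.

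The tested log2 values that reversed sign with a library left out ran as follows. Within shSC, Lef1 from Day 0 to Day 2 ran from −0.51 to 0.17 and Sp5 from Day 0 to Day 4 from −0.28 to 0.40 (−0.00899 by limma-voom). Within shCTSL, Axin2 ran from −0.68 to 0.36 for Day 0 to Day 2, from −0.44 to 0.58 for Day 2 to Day 4 and from −0.26 to 0.0422 for Day 0 to Day 4, and Wnt5a from −0.10 to 1.11 for Day 0 to Day 2. For Day 2 to Day 4 Axin2 was also at 0.00451 with RLE scaling, 0.00975 by DESeq2 and 0.00536 by limma-voom. Between the lines at Day 0, where nothing was tested, Wnt5a ran from −0.21 to 0.64, Dkk1 from −0.39 to 1.18 and Nkd1 from −0.16 to 0.21. Between the lines at Day 2, Axin2 ran from −0.78 to 0.23, Sp5 from −0.28 to 0.32, Lef1 from −0.48 to 0.0769, Tcf7 from −0.0467 to 0.0123 and Sfrp5 from −0.0326 to 0.73. Sp5 was there at −0.0131 with RLE scaling, −0.0191 by DESeq2 and −0.00675 with no filter. Between the lines at Day 4, Sp5 ran from −0.25 to 0.43, Tcf7 from −0.0699 to 0.15 and Wnt6 from −0.77 to 0.22. For the difference between the lines in Day 4 against Day 2, Axin2 ran from −0.78 to 0.23, Nkd1 from −0.38 to 0.00779, Sp5 from −0.26 to 0.42, Lef1 from −0.36 to 0.20, Tcf7 from −0.0502 to 0.17, Sfrp1 from −0.10 to 0.0511, Sfrp5 from −0.46 to 0.31 and Wnt5a from −0.35 to 0.70. Sfrp1 was there at 0.00618 with RLE scaling and 0.00611 by DESeq2. For Day 4 against Day 0, Sfrp1 ran from −0.0284 to 0.12.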
